A study of Mus musculus with 28 samples.

Results

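The interferon response genes described here are 34 mouse genes listed by name: the IFIT, OAS and Mx families, the interferon regulators Irf1, Irf7, Irf9 and Stat2, RNA sensors, guanylate-binding proteins, ubiquitin-like enzymes, a chemokine, ADP-ribosyltransferases and antigen-processing genes. All 34 were found among the 23712 gene rows of the 28 RNA-seq libraries, and all 34 were among the 16499 genes that passed the filter on low counts. The cells were C57BL/6 mouse embryonic fibroblasts (MEF) taken 13.5 days post coitum, MEF infected with retrovirus carrying Hnf4alpha and 1 Foxa factor, and the induced hepatocyte-like cells (iHep) that such infection gives. Established iHep made with Foxa1 (iHep_Foxa1) and with Foxa3 (iHep_Foxa3) gave 6 libraries each, and those made with Foxa2 (iHep_Foxa2) gave 4. Cells 48 h after infection gave 2 libraries for each factor (48h_Foxa1, 48h_Foxa2, 48h_Foxa3) and 2 for a Foxa3 deletion mutant called del2 (48h_Foxa3del2). Hepatocytes (Hep) isolated by collagenase digestion from the livers of 10-week-old mice and uninfected MEF gave 2 libraries each. All infected groups received Hnf4alpha from the pGCDNsam retroviral backbone together with the Foxa factor, and no library of MEF infected with an empty virus was among the samples, so retroviral infection and the delivered factors cannot be told apart. The titles of the 48h_Foxa3del2 libraries give 48 h while their stage label says iHep. The labels do not say whether replicates were separate cultures or animals, so the p-values measure the spread between these libraries, which may be technical.

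Type I and type III interferons act through receptors coupled to the kinases Jak1 and Tyk2, and a complex that holds Stat2 and Irf9 then binds the interferon-stimulated response element (ISRE) of target genes, whereas the response to interferon gamma uses the gamma-activated site (GAS). Interferons are made when sensors such as Ifih1 (MDA5) detect viral RNA, and the induced genes block entry, translation, replication or release of viruses and raise antigen presentation.

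Promoters are shown for 5 members whose levels recur below, so that the response elements can be read beside the values. The sequences are 300 bases each, 250 before and 50 after the start of the gene, from RefSeq on GRCm38.p6, written 5′ to 3′ on the strand of the gene. Capitals mark each match to the ISRE core GAAANNGAAA, or in Irf1 to the GAS core TTCNNNGAA, on either strand.
Ifit3: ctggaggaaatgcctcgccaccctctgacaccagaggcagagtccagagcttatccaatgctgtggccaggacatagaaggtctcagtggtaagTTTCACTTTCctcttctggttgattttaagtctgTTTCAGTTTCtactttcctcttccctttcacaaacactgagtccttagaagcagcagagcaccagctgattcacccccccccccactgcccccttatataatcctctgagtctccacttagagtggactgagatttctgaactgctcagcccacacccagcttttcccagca
Isg15: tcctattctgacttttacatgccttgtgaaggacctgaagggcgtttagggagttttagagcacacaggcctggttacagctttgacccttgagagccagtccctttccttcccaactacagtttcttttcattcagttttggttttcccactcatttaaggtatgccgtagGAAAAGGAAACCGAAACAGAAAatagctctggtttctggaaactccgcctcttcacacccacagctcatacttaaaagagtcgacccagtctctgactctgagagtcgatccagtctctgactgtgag
Oas3: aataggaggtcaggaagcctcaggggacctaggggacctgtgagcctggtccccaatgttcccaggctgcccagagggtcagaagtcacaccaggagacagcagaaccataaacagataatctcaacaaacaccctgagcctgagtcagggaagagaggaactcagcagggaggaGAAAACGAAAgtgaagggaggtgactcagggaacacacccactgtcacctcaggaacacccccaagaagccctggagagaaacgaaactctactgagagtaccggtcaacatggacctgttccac
Gbp2: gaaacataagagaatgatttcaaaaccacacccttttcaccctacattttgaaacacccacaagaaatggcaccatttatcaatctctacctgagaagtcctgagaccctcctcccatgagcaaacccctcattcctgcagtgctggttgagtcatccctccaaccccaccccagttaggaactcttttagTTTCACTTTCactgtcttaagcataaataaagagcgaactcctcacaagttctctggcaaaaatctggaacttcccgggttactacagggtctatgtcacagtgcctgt
Irf1: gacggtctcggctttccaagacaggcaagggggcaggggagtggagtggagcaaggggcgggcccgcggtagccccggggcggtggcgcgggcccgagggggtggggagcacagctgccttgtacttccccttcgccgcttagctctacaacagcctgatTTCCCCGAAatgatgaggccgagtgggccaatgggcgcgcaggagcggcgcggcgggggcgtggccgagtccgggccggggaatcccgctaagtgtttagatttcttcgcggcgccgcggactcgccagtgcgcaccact
Ifit3 lies at chr19:34583279-34583578 on the plus strand, Isg15 at chr4:156200769-156201068 on the minus strand, Oas3 at chr5:120777610-120777909 on the minus strand, Gbp2 at chr3:142620413-142620712 on the plus strand and Irf1 at chr11:53769764-53770063 on the plus strand. Ifit3 held 2 matches to the ISRE core, Isg15 held 3 that overlap one another between -78 and -57 from the start, and Oas3 and Gbp2 held 1 each. Of the 26 members with a promoter in the RefSeq table, 13 held the ISRE core (Ifit1, Ifit3, Stat2, Isg15, Oas1a, Oas3, Rsad2, Ifih1, Bst2, Cxcl10, Gbp2, Gbp3 and Eif2ak2), against 3.99% of the 27025 genes with a promoter there. The GAS core was found in 7 of the 26 (Ifit2, Irf1, Oas1a, Bst2, Ifi35, Psmb8 and Eif2ak2), against 9.55% of all genes, and in Bst2 the match overlapped an ISRE match. Usp18, Oas2, Mx1, Mx2, Dhx58, Parp9, Parp14 and Rtp4 are named only. A match describes these letters in this window and not binding.

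Each library held 14592820 to 51743266 assigned reads. Levels are given as CPM, the usual count scaled to library size, here the TMM-scaled size. On the size before TMM scaling, 3 counts amount to 0.058 to 0.206 CPM. After scaling they amount to more in Hep, whose TMM factors were 0.522 and 0.55. Within a group, libraries correlated at 0.914 or more across genes, and the 48 h pairs at 0.994 or more. The delivered factor was detected in the groups labelled with it: Foxa1 read 468 to 3420 CPM in iHep_Foxa1 and 46.1 to 50.5 CPM in 48h_Foxa1, Foxa2 988 to 3280 CPM in iHep_Foxa2 and 45.5 to 45.7 CPM in 48h_Foxa2, and Foxa3 653 to 2070 CPM in iHep_Foxa3, 506 to 612 CPM in 48h_Foxa3del2 and 67.7 to 77.2 CPM in 48h_Foxa3. Gene-level counts cannot show the deletion. The 8 hepatocyte markers summed to 2140 to 29500 CPM in iHep libraries, against 206000 to 222000 CPM in Hep and 13.4 to 16 CPM in MEF. Apoa1 was the largest part of the sum in every iHep library, at 51153 to 574971 counts, against 57604 and 46372 in Hep. Trf and Serpina1a also exceeded MEF in every iHep library. Alb, Ttr, Apoa2, Fga and Cps1 lay above MEF in some iHep libraries and below it in others, with Apoa2 at 2 to 45 counts, against 17 and 16 in MEF. The noncoding RNA Rn7sk split the libraries into a high set above 10 CPM (the 6 libraries 48 h after infection with a full-length factor, iHep_Foxa1 replicates 4 to 6 and iHep_Foxa3 replicates 2 to 6) and a low set below it (all others). MEF, Hep, 48h_Foxa3del2 and iHep_Foxa2 are wholly in the low set, so set and group cannot be told apart in the comparisons of 48 h cells with MEF, of iHep_Foxa2 with 48h_Foxa2 and of 48h_Foxa3del2 with 48h_Foxa3. Where a fit holds a term for the set, that term is estimated inside iHep_Foxa1 and iHep_Foxa3, the only groups with libraries of both sets. It is then carried over to the other groups. The 11 macrophage markers found summed to 0.0784 to 5.02 CPM in iHep, 57.9 to 64 CPM in 48h_Foxa3del2, 6.54 to 13.6 CPM in the other 48 h libraries, 352 to 445 CPM in Hep and 29 and 336 CPM in MEF replicates 1 and 2.

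Levels of the members varied more between iHep libraries than levels of most genes. Among the 31 members with more than 3 counts in each iHep library, the highest of the 16 libraries exceeded the lowest by a median of 12.8-fold, against 3.12-fold over 12608 genes counted the same way, and 18 of the 31 reached 10-fold, against 15.6% of those genes. The spread was 306-fold for Oasl2, an OAS-like protein, 287-fold for Ifit3, which binds viral RNA with Ifit1, and 149-fold for Isg15, the ubiquitin-like modifier. It was smallest for Trim25, a ubiquitin ligase of the RIG-I pathway, at 3.51-fold, for Irf1 at 4.05-fold and for Ifih1 at 4.47-fold. On the length-scaled FPKM of the deposited files, which allows genes to be compared, Bst2 (tetherin, which holds budding virions at the cell surface) averaged 49.3 FPKM over the 28 libraries and Irf1 39.3 FPKM, while Oasl1 averaged 0.758 FPKM. Usp18, Oasl1 and Ifi44 had 3 or fewer counts in at least 1 iHep library. Reads of close relatives in the Oas1, Ifit and Gbp families may have been split or shared by the authors' counting, so levels of Oas1a, Ifit1, Ifit3, Gbp2 and Gbp3 are uncertain in that respect.

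**Figure D1:**
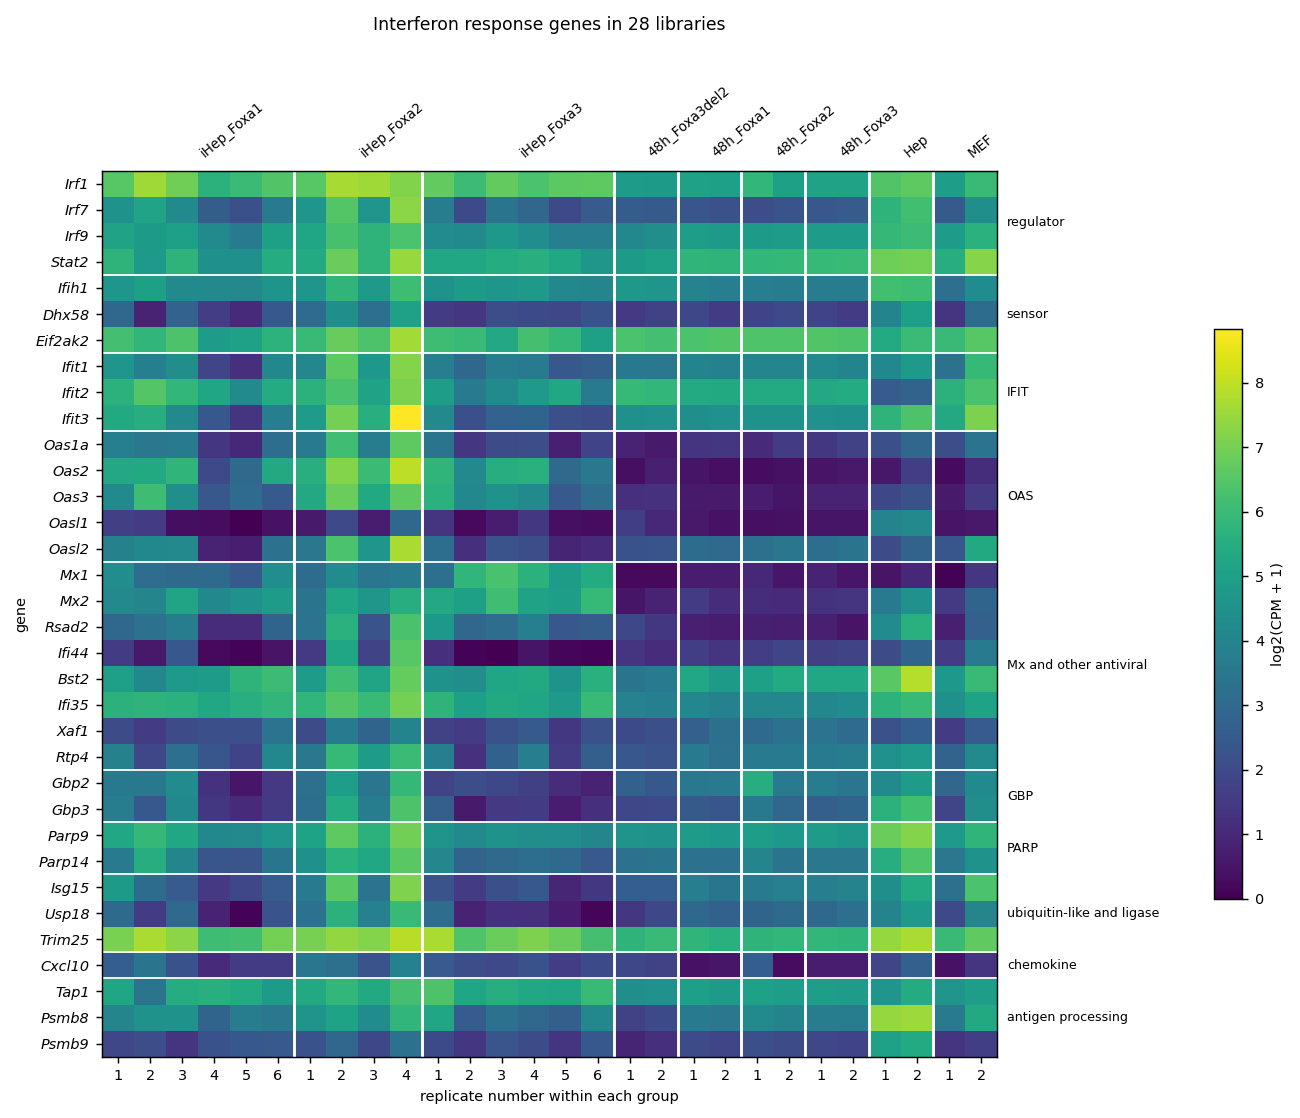
Level of each of the 34 members (rows, by role) in each of the 28 libraries (columns, by group and replicate), as log2(CPM + 1). The iHep_Foxa2 replicates 2 and 4 are bright over most rows, and Oas2, Oas3, Mx1 and Mx2 are brighter in every iHep library than in every 48 h and MEF library.

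The summed level of the 34 members was 912, 2382, 1198 and 3736 CPM in iHep_Foxa2 replicates 1 to 4. It was 944, 1135, 995, 442, 476 and 804 CPM in iHep_Foxa1 replicates 1 to 6 and 1001, 579, 815, 790, 588 and 645 CPM in iHep_Foxa3 replicates 1 to 6. iHep_Foxa2 replicates 2 and 4 thus exceeded the sum of every other library, Hep included, where it was 1412 and 1956 CPM. The 48 h libraries with a full-length factor lay between 517 and 634 CPM, the 48h_Foxa3del2 libraries at 444 and 450 CPM, and MEF at 501 and 1253 CPM. iHep_Foxa2 replicate 4 was the highest of all 28 libraries for 23 members, against 3.94% of the genes tested. Replicates 2 and 4 were the upper pair of the 4 iHep_Foxa2 libraries for 32 members, against 16.8% of genes. The labels give no feature that sets these 2 libraries apart from the other two, and macrophage markers summed to 0.644 and 0.321 CPM in them.

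Between 48 h and established iHep, the antiviral effectors Oas2, Oas3, Mx1 and Mx2 rose with every Foxa factor. These 4 members were higher in each of the 16 iHep libraries than in each 48 h library, 48h_Foxa3del2 included, and each MEF library. This pattern was met by 5.76% of the genes tested. OAS enzymes make oligoadenylates that activate RNase L, and Mx proteins are dynamin-like GTPases that trap viral components; Mx1 is known to be disrupted in C57BL/6 mice, so its transcript need not give a working protein.

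Oas2 read 39.4, 39.9, 54.3, 2.87, 7.34 and 39.4 CPM in iHep_Foxa1, against 0.427 and 0.292 CPM in 48h_Foxa1. It read 45.2, 146, 63.5 and 249 CPM in iHep_Foxa2, against 0.234 and 0.304 CPM in 48h_Foxa2. It read 53.9, 16.9, 44.7, 48.5, 7.35 and 10.7 CPM in iHep_Foxa3, against 0.397 and 0.511 CPM in 48h_Foxa3. No iHep library overlapped the 48 h libraries, although the iHep libraries themselves spanned 86.7-fold, from iHep_Foxa1 replicate 4 to iHep_Foxa2 replicate 4. The fits with edgeR's quasi-likelihood test, adjusted over all 16499 genes by the Benjamini-Hochberg method, gave a log2 fold change of 6.40 ± 1.32 for iHep_Foxa1 (SE, adjusted p = 0.000563), 8.85 ± 1.49 for iHep_Foxa2 (adjusted p = 9.75e-05) and 6.05 ± 1.29 for iHep_Foxa3 (adjusted p = 0.000694). Oas3 read 17.9, 67.6, 19.5, 4.3, 7.46 and 4.73 CPM in iHep_Foxa1, against 0.56 and 0.562 CPM in 48h_Foxa1. It read 39.2, 112, 40.3 and 98.9 CPM in iHep_Foxa2, against 0.617 and 0.421 CPM in 48h_Foxa2. It read 49.7, 16.4, 21.9, 17.5, 4.65 and 8.04 CPM in iHep_Foxa3, against 0.857 and 0.813 CPM in 48h_Foxa3. Its lowest iHep values were in iHep_Foxa1 replicates 4 and 6 and iHep_Foxa3 replicate 5, all of the high Rn7sk set, and still above the 48 h values. The log2 fold changes of Oas3 were 5.17 ± 1.17 (adjusted p = 0.0013), 7.11 ± 1.30 (adjusted p = 0.000228) and 4.55 ± 1.12 (adjusted p = 0.00252) for Foxa1, Foxa2 and Foxa3.

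Mx1 differed from the OAS genes in which iHep libraries were high. It read 19, 7.88, 7.31, 7.09, 4.5 and 19.3 CPM in iHep_Foxa1, against 0.64 and 0.652 CPM in 48h_Foxa1. It read 7.7, 18.3, 10 and 11.7 CPM in iHep_Foxa2, against 0.978 and 0.445 CPM in 48h_Foxa2. It read 8.43, 55.4, 78.1, 50.4, 28.5 and 42.2 CPM in iHep_Foxa3, against 0.837 and 0.441 CPM in 48h_Foxa3. The 5 highest levels were those of iHep_Foxa3 replicates 2 to 6, and iHep_Foxa2 replicate 4, the highest library for most members, was not among them. The log2 fold changes were 4.06 ± 0.92 (adjusted p = 0.00132), 4.05 ± 0.93 (adjusted p = 0.00183) and 6.09 ± 1.03 (adjusted p = 6.33e-05) for Foxa1, Foxa2 and Foxa3. Mx2 ranged over 15.4 to 34.7 CPM in iHep_Foxa1, against 1.19 to 1.89 CPM in 48h_Foxa1, and over 9.46 to 44.7 CPM in iHep_Foxa2, against 1.15 to 1.25 CPM in 48h_Foxa2. It ranged over 29.6 to 68.8 CPM in iHep_Foxa3, against 1.44 to 1.51 CPM in 48h_Foxa3, with log2 fold changes of 3.85 ± 0.63, 4.57 ± 0.66 and 4.89 ± 0.67 (adjusted p = 4.87e-05, 2.08e-05 and 4.9e-06) for Foxa1, Foxa2 and Foxa3. In the edgeR fits of these 4 genes against 48 h cells, the adjusted p stayed under 0.05 when each library was left out in turn and under each processing alternative.

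**Figure D2:**
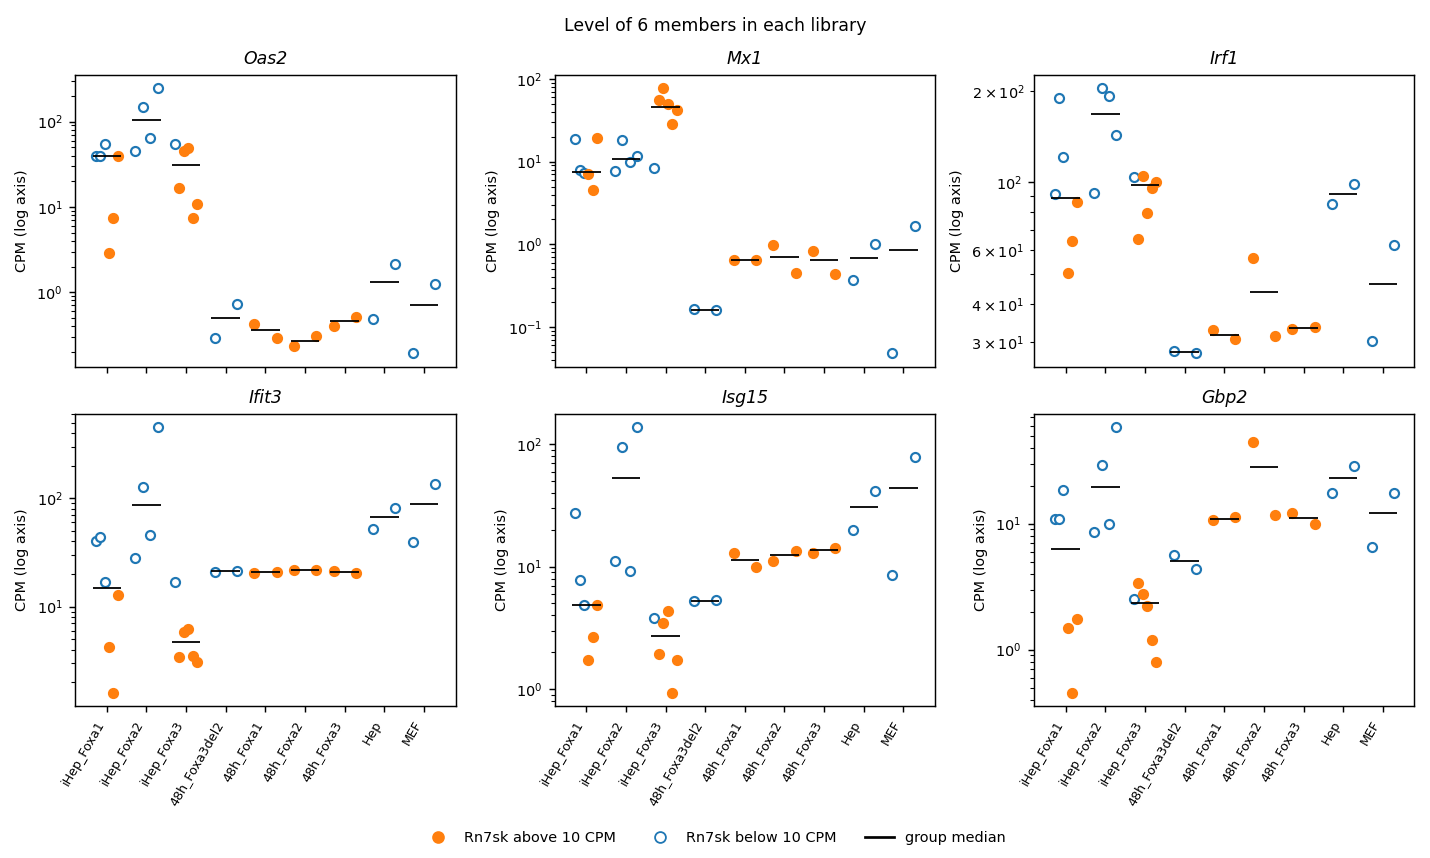
CPM on a log axis of Oas2, Mx1, Irf1, Ifit3, Isg15 and Gbp2 in each library, by group, with the group median as a bar; filled points have Rn7sk above 10 CPM and open points below. Oas2 and Mx1 show no overlap between iHep and 48 h libraries, whereas Ifit3, Isg15 and Gbp2 in the filled iHep points lie below the filled 48 h points.

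Counted over all members, iHep_Foxa1 had 9 higher and 0 lower than 48h_Foxa1 in the edgeR fit, where 21.2% of all genes were called higher and 20.7% lower. iHep_Foxa2 had 16 higher and 0 lower than 48h_Foxa2, against 20.4% and 19.7% of all genes. iHep_Foxa3 had 9 higher and 3 lower than 48h_Foxa3, against 19.6% and 21% of all genes. The median log2 fold change of the members was 0.40, 2.02 and -0.10 for Foxa1, Foxa2 and Foxa3, and that of all genes 0.08, 0.02 and 0.05. The share of members called higher was thus near the background with Foxa1 and Foxa3 and above it with Foxa2. The counts of 0 lower members with Foxa1 and Foxa2 were also 0 at an unadjusted p under 0.05 in edgeR and 0 in DESeq2.

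Of the 4 regulators, Irf1 rose with every factor. Irf1 activates interferon and antigen presentation genes. It read 91.7, 189.7, 121, 50.5, 64.1 and 86.2 CPM in iHep_Foxa1, against 32.7 and 30.5 CPM in 48h_Foxa1 (log2 fold change 1.67 ± 0.42, adjusted p = 0.00283). It read 92.1, 204, 192 and 143 CPM in iHep_Foxa2, against 56.3 and 31.3 CPM in 48h_Foxa2 (log2 fold change 1.85 ± 0.43, adjusted p = 0.00215). It read 104, 65, 105, 79.6, 96.1 and 100.4 CPM in iHep_Foxa3, against 33 and 33.5 CPM in 48h_Foxa3 (log2 fold change 1.46 ± 0.41, adjusted p = 0.00673). Every iHep library lay above both 48 h libraries of its factor, and iHep_Foxa1 replicate 4 came closest to them. The Irf1 call was lost without 48h_Foxa2 replicate 2 (adjusted p = 0.0741), without 48h_Foxa3 replicate 1 (0.0704) and without 48h_Foxa3 replicate 2 (0.0661). Irf7, which amplifies interferon production, rose with Foxa2 (log2 fold change 4.33 ± 1.01, adjusted p = 0.00201) and Irf9, the DNA-binding partner of Stat2, rose with Foxa2 as well (log2 fold change 1.15 ± 0.38, adjusted p = 0.0196). Irf7 read 23.8, 87, 23.6 and 156 CPM in iHep_Foxa2, against 3.25 and 3.93 CPM in 48h_Foxa2, and no libraries overlapped. The Irf9 call was lost without either 48h_Foxa2 library (0.124 and 0.127), whereas that of Irf7 was kept without each library. Stat2 was not called with any factor, with log2 fold changes of -0.55, 0.71 and -0.70 for Foxa1, Foxa2 and Foxa3.

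Other members called higher than at 48 h were Ifi35 and Trim25 with every factor, Rsad2 (viperin, a radical SAM enzyme) with every factor, and Cxcl10, the chemokine that draws Cxcr3-bearing lymphocytes, with Foxa1 and Foxa3. Ifi35 ranged over 38 to 54.8 CPM in iHep_Foxa1, against 13.7 to 16.4 CPM in 48h_Foxa1 (log2 fold change 1.69 ± 0.32, adjusted p = 0.000269). Trim25 read 208, 84.5, 115, 136, 112 and 75.2 CPM in iHep_Foxa3, against 56.2 and 54.6 CPM in 48h_Foxa3 (log2 fold change 1.14 ± 0.40, adjusted p = 0.0258). Both genes were above 48 h in every iHep library. Rsad2 read 25.1, 6.54, 7.88, 13.2, 4.29 and 5.08 CPM in iHep_Foxa3, against 0.711 and 0.372 CPM in 48h_Foxa3 (log2 fold change 4.24 ± 1.25, adjusted p = 0.00933), again without overlap. Cxcl10 read 5.17, 9.57, 3.66, 1.09, 1.99 and 1.97 CPM in iHep_Foxa1, against 0.347 and 0.45 CPM in 48h_Foxa1 (log2 fold change 3.28 ± 0.97, adjusted p = 0.00984). Rsad2 and Cxcl10 were not called with Foxa1 or Foxa3 when either 48 h library of that factor was left out (adjusted p = 0.164 and 0.181 for Rsad2 with Foxa1, 0.0639 and 0.109 with Foxa3; 0.101 and 0.0769 for Cxcl10 with Foxa1, 0.183 and 0.184 with Foxa3). Trim25 likewise lost its call in the Foxa1 comparison (0.0763 and 0.115), the Foxa2 comparison (0.0551 and 0.0501) and the Foxa3 comparison (0.137 and 0.152) without either 48 h library, and Ifi35 with Foxa3 without 48h_Foxa3 replicate 1 (0.0563). Cxcl10 with Foxa3 was also lost without iHep_Foxa3 replicate 1 (0.0526). With Foxa3 the number of members called was 4 without 48h_Foxa3 replicate 1 and 5 without replicate 2, in place of 12.

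With Foxa2, 8 members rose in addition to the 8 that rose with every factor: Irf7 and Irf9 above, Ifit3, Oas1a, the RNA sensors Ifih1 and Dhx58 (LGP2), and the ADP-ribosyltransferases Parp9 and Parp14. Oas1a read 11.9, 68.9, 12.6 and 100.3 CPM in iHep_Foxa2, against 1.15 and 1.87 CPM in 48h_Foxa2 (log2 fold change 5.0 ± 1.23, adjusted p = 0.00294). Ifih1 read 23.6, 53.5, 26.4 and 67.7 CPM in iHep_Foxa2, against 12.9 and 12 CPM in 48h_Foxa2 (log2 fold change 1.78 ± 0.40, adjusted p = 0.00149). Neither gene overlapped between the groups, whereas the call of Ifit3 (adjusted p = 0.0493) was lost without 48h_Foxa2 replicate 1 (0.204) or 2 (0.209) and without iHep_Foxa2 replicate 2 (0.0566) or 4 (0.202). Oas1a lost its call without 48h_Foxa2 replicate 1 (0.053), and Dhx58, Parp9 and Parp14 theirs without either 48h_Foxa2 library (0.0856 to 0.268). The number of members called was 10 without 48h_Foxa2 replicate 1 and 9 without replicate 2, in place of 16. With a term for the Rn7sk set it was 9 higher and 0 lower, against 16.3% and 15.8% of all genes. The 9 were Irf7, Oas1a, Oas2, Oas3, Mx1, Mx2, Rsad2, Ifih1 and Ifi35. No library set holds both groups, so the set term was carried over from iHep_Foxa1 and iHep_Foxa3.

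Within the high Rn7sk set alone, which leaves iHep_Foxa1 replicates 4 to 6, iHep_Foxa3 replicates 2 to 6 and the 6 full-length 48 h libraries, the members moved in both directions. iHep_Foxa1 then had 8 members higher than 48h_Foxa1 and 8 lower, against 27.3% and 29.8% of the 15653 genes tested there. iHep_Foxa3 had 10 higher than 48h_Foxa3 and 10 lower, against 26% and 28.4%. Irf1, Oas2, Oas3, Mx1, Mx2, Rsad2, Ifi35 and Trim25 were higher in both comparisons. Ifit3, Stat2, Isg15, Ifi44, Gbp2, Gbp3 and Parp9 were lower in both. The comparisons share no library, and the shares of all genes called were as large as the members' shares or close to them.

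Ifit3 read 4.26, 1.59 and 12.7 CPM in iHep_Foxa1 replicates 4 to 6, against 20.3 and 21.1 CPM in 48h_Foxa1 (log2 fold change -1.75 ± 0.58, adjusted p = 0.0212 within the high set). Replicates 1 to 3 of iHep_Foxa1 read 40.5, 44.4 and 16.9 CPM, so that with all 6 libraries its log2 fold change was -0.04 and not called. In iHep_Foxa3 it read 3.44, 5.85, 6.24, 3.46 and 3.1 CPM in replicates 2 to 6, against 21.5 and 20.6 CPM in 48h_Foxa3 (log2 fold change -2.29 ± 0.50, adjusted p = 0.00221 within the high set). Each of these high-set iHep libraries lay below the 48 h libraries. Isg15 read 1.74, 2.68 and 4.86 CPM in iHep_Foxa1 replicates 4 to 6, against 12.8 and 9.91 CPM in 48h_Foxa1 (log2 fold change -1.90 ± 0.54, adjusted p = 0.00985 within the high set). It read 3.84, 1.93, 3.44, 4.36, 0.931 and 1.73 CPM in iHep_Foxa3 replicates 1 to 6, against 12.8 and 14.3 CPM in 48h_Foxa3, a fall with all libraries (log2 fold change -2.33 ± 0.87, adjusted p = 0.0364) that was lost without either 48h_Foxa3 library (0.114 and 0.146) or without iHep_Foxa3 replicate 2, 5 or 6 (0.0595, 0.0644 and 0.0624). Gbp2, a guanylate-binding GTPase, read 1.48, 0.455 and 1.76 CPM in iHep_Foxa1 replicates 4 to 6, against 10.6 and 11.2 CPM in 48h_Foxa1 (log2 fold change -3.14 ± 0.67, adjusted p = 0.00181 within the high set). Gbp2 read 2.51, 3.38, 2.77, 2.21, 1.2 and 0.793 CPM in iHep_Foxa3, against 12.2 and 9.99 CPM in 48h_Foxa3 (log2 fold change -2.37 ± 0.83, adjusted p = 0.027 with all libraries), with no overlap. Xaf1 was the other member lower in iHep_Foxa3 with all libraries (log2 fold change -1.51 ± 0.50, adjusted p = 0.0198), and the calls of both Gbp2 and Xaf1 were lost without 48h_Foxa3 replicate 1 (0.134 and 0.142) or replicate 2 (0.0835 and 0.0671), that of Gbp2 also without iHep_Foxa3 replicate 6 (0.0503).

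**Figure D3:**
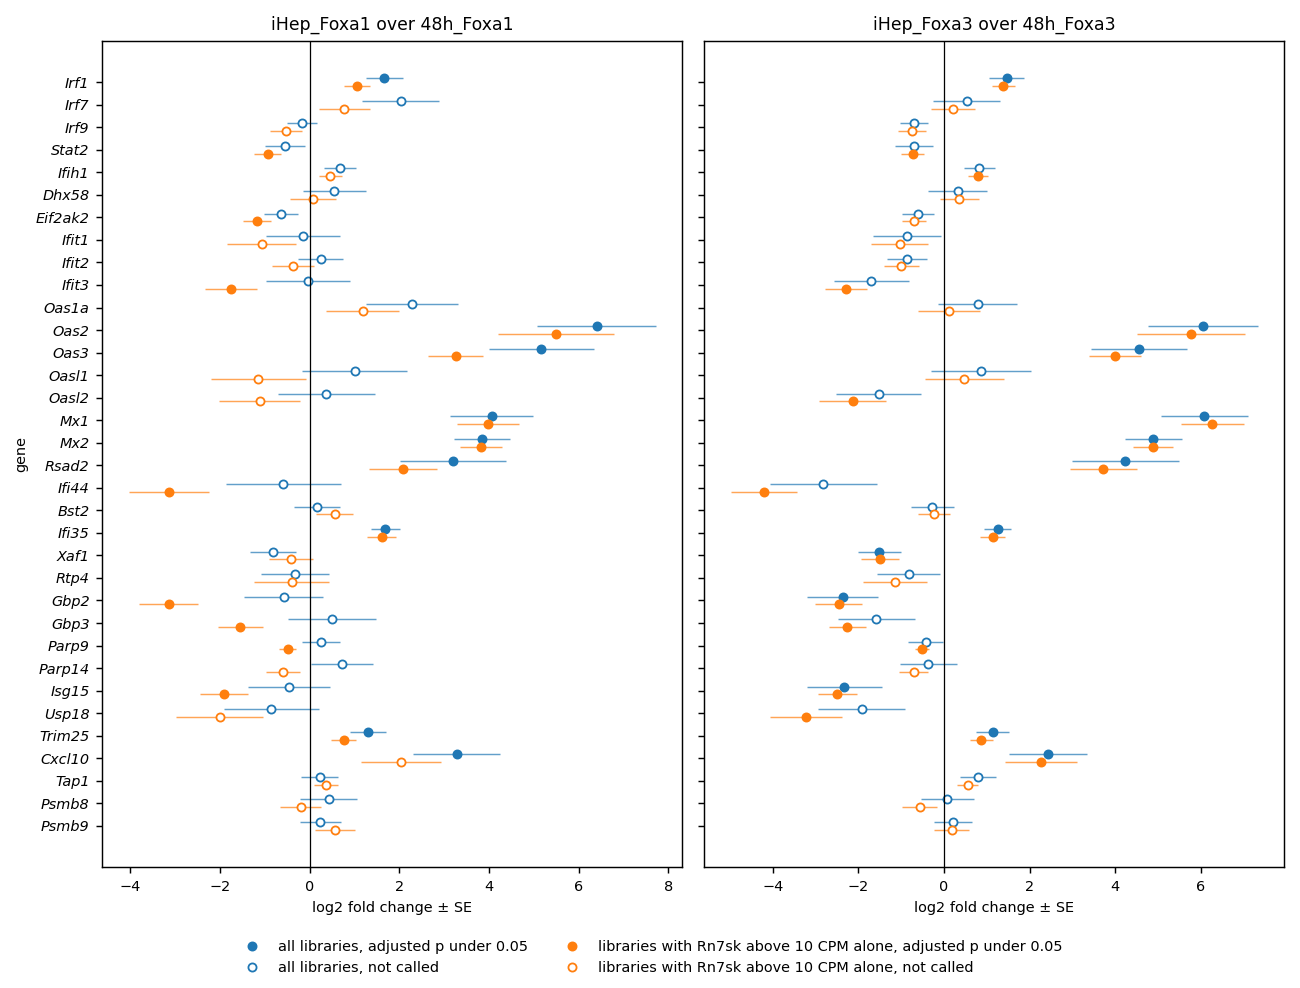
Log2 fold change ± SE of each member in iHep_Foxa1 over 48h_Foxa1 (left) and iHep_Foxa3 over 48h_Foxa3 (right), with all libraries and with the libraries above 10 CPM of Rn7sk alone; filled points have adjusted p under 0.05. Oas2, Oas3, Mx1 and Mx2 stay to the right of 0 in both, whereas Ifit3, Ifi44, Gbp2, Gbp3 and Isg15 lie to the left of 0 within the set alone.

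iHep_Foxa1 holds 3 libraries of each Rn7sk set, and its replicates 4 to 6 had 12 members lower and 0 higher than replicates 1 to 3 in edgeR, where 19.4% of all genes were lower and 14.4% higher. The 12 were Ifit3, Irf1, Irf7, Oas3, Oasl1, Cxcl10, Gbp2, Gbp3, Parp9, Parp14, Trim25 and Eif2ak2 (the kinase PKR, which halts translation on double-stranded RNA). Gbp2 read 1.48, 0.455 and 1.76 CPM in replicates 4 to 6, against 11, 10.9 and 18.3 CPM in replicates 1 to 3 (log2 fold change -3.42 ± 0.72, adjusted p = 0.0013). Oas3 read 4.3, 7.46 and 4.73 CPM in replicates 4 to 6, against 17.9, 67.6 and 19.5 CPM in replicates 1 to 3 (-2.67 ± 0.68, adjusted p = 0.0052). Gbp2, Oas3 and Parp9 stayed called when each library was left out, while the number of members called fell to 7 without replicate 1, 5 without replicate 2, 4 without replicate 4 and 3 without replicate 5. Replicate 6 was nearer to replicates 1 to 3 than replicates 4 and 5 for several members: Oas2 read 2.87, 7.34 and 39.4 CPM and Ifit1 2.56, 1.31 and 16.7 CPM in replicates 4 to 6, against 39.4, 39.9 and 54.3 CPM and 23.6, 13.2 and 19.7 CPM in replicates 1 to 3.

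Among established iHep, the summed level of the members was highest in iHep_Foxa2 replicates 2 and 4. It was 1198 CPM in iHep_Foxa2 replicate 3 and 912 CPM in replicate 1. iHep_Foxa1 replicates 1 to 3 (944, 1135 and 995 CPM) and iHep_Foxa3 replicate 1 (1001 CPM) lay between those 2 values. The calls between the groups rested on the libraries named below. iHep_Foxa2 had 25 members higher and 1 lower than iHep_Foxa3 in edgeR, against 16% and 15.1% of all genes, and a median log2 fold change of 1.80 over the members and 0.03 over all genes. Ifit3 read 28.2, 127, 45.9 and 458 CPM in iHep_Foxa2, against 16.8, 3.44, 5.85, 6.24, 3.46 and 3.1 CPM in iHep_Foxa3 (log2 fold change 4.67 ± 0.80, adjusted p = 0.000615). Isg15 read 11.1, 95.4, 9.29 and 138 CPM in iHep_Foxa2, against 3.84, 1.93, 3.44, 4.36, 0.931 and 1.73 CPM in iHep_Foxa3 (log2 fold change 4.55 ± 0.80, adjusted p = 0.000703). Irf7 read 23.8, 87, 23.6 and 156 CPM in iHep_Foxa2, against 12.5, 3, 9.65, 6.5, 2.83 and 4.79 CPM in iHep_Foxa3 (log2 fold change 3.47 ± 0.61, adjusted p = 0.000721). All 3 genes were higher in every iHep_Foxa2 library than in every iHep_Foxa3 library. Irf9 read 36.2, 75.7, 52.4 and 79.5 CPM in iHep_Foxa2, against 18.4, 17.1, 25.2, 19.3, 12.7 and 12.7 CPM in iHep_Foxa3 (log2 fold change 1.79 ± 0.26, adjusted p = 0.000214), and Stat2 read 41.5, 111, 52.6 and 175 CPM, against 37.4, 38.2, 43.1, 45.4, 38.2 and 24.6 CPM (log2 fold change 1.33 ± 0.36, adjusted p = 0.0092). Irf9 did not overlap between the groups and Stat2 did, as iHep_Foxa2 replicate 1 lay within the range of iHep_Foxa3; the Stat2 call was lost without iHep_Foxa2 replicate 4 (0.078). Mx1 was the lower member: it read 7.7, 18.3, 10 and 11.7 CPM in iHep_Foxa2, against 8.43, 55.4, 78.1, 50.4, 28.5 and 42.2 CPM in iHep_Foxa3 (log2 fold change -1.88 ± 0.59, adjusted p = 0.0199), and lost its call without iHep_Foxa2 replicate 1 (0.0569) or 3 (0.0529). By role, all 3 IFIT genes, all 4 regulators, 4 of 5 OAS genes, all 3 sensors, both GBP genes and both PARP genes were called higher in iHep_Foxa2, and 1 of the 3 antigen-processing genes (Psmb8). Several of these calls were lost when 1 library was left out: Irf1 in 8 such fits (edgeR adjusted p 0.0545 to 0.142), Oas3 in 6 (0.0523 to 0.0911), Psmb8 in 6 (0.0716 to 0.17) and Oas2 in 3 (0.0512 to 0.122). The sensors Ifih1 (0.0755) and Eif2ak2 (0.131) were lost without iHep_Foxa2 replicate 4.

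The Rn7sk set bears on these counts, because iHep_Foxa2 is wholly in the low set and iHep_Foxa3 has 1 library there. With a term for the set in the fit, 4 members stayed higher in iHep_Foxa2 than in iHep_Foxa3 and 0 were lower, against 1.8% and 3.05% of all genes: Ifit3 (log2 fold change 3.01 ± 0.84, adjusted p = 0.0426), Irf9 (1.44 ± 0.35, adjusted p = 0.0229), Ifi44 (4.64 ± 1.33, adjusted p = 0.047) and Xaf1 (2.22 ± 0.53, adjusted p = 0.0215). In the low set alone, with iHep_Foxa3 replicate 1 as the lone library of its group and assumed to vary like the others, 0 members were called higher or lower, against 0.671% and 1.03% of genes, and the median log2 fold change of the members was 1.40. Mx1 then read 0.51 on the log2 scale, the opposite direction, and iHep_Foxa3 replicate 1 had 8.43 CPM.

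iHep_Foxa1 had 19 members lower and 0 higher than iHep_Foxa2 in edgeR, against 3.87% and 7.1% of all genes. Irf9 read 33, 27.5, 31, 17.2, 11.7 and 31.5 CPM in iHep_Foxa1, against 36.2, 75.7, 52.4 and 79.5 CPM in iHep_Foxa2 (log2 fold change -1.27 ± 0.26, adjusted p = 0.0103). Ifit3 read 40.5, 44.4, 16.9, 4.26, 1.59 and 12.7 CPM in iHep_Foxa1, against 28.2, 127, 45.9 and 458 CPM in iHep_Foxa2 (log2 fold change -3.03 ± 0.75, adjusted p = 0.0204). Ifi44 read 1.92, 0.51, 4.33, 0.174, 0.0569 and 0.377 CPM in iHep_Foxa1, against 1.86, 36, 2.49 and 93.3 CPM in iHep_Foxa2 (log2 fold change -4.76 ± 1.10, adjusted p = 0.0172). Irf9 did not overlap between the groups, while Ifit3 and Ifi44 did, iHep_Foxa2 replicates 1 and 3 lying near iHep_Foxa1 replicates 1 to 3. Without iHep_Foxa2 replicate 4 the number of members called lower was 1 (Irf9), and it was 11 without iHep_Foxa2 replicate 2 or iHep_Foxa1 replicate 4, 6 without iHep_Foxa1 replicate 5 and 10 without iHep_Foxa1 replicate 6. With a term for the Rn7sk set, 0 members were higher and 0 lower, against 0.612% and 0.327% of genes. Within the low set, which holds iHep_Foxa1 replicates 1 to 3 and all of iHep_Foxa2, 0 were higher and 0 lower, against 0.0183% and 0.0061%, and the median log2 fold change of the members was -1.12. iHep_Foxa1 had 1 member lower than iHep_Foxa3, Mx1 (log2 fold change -2.01 ± 0.51, adjusted p = 0.0192), and 0 higher, against 3.92% and 4.41% of genes; in the low set alone, where iHep_Foxa3 is 1 library (replicate 1), Mx1 read 0.45 on the log2 scale and was not called.

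**Figure D4:**
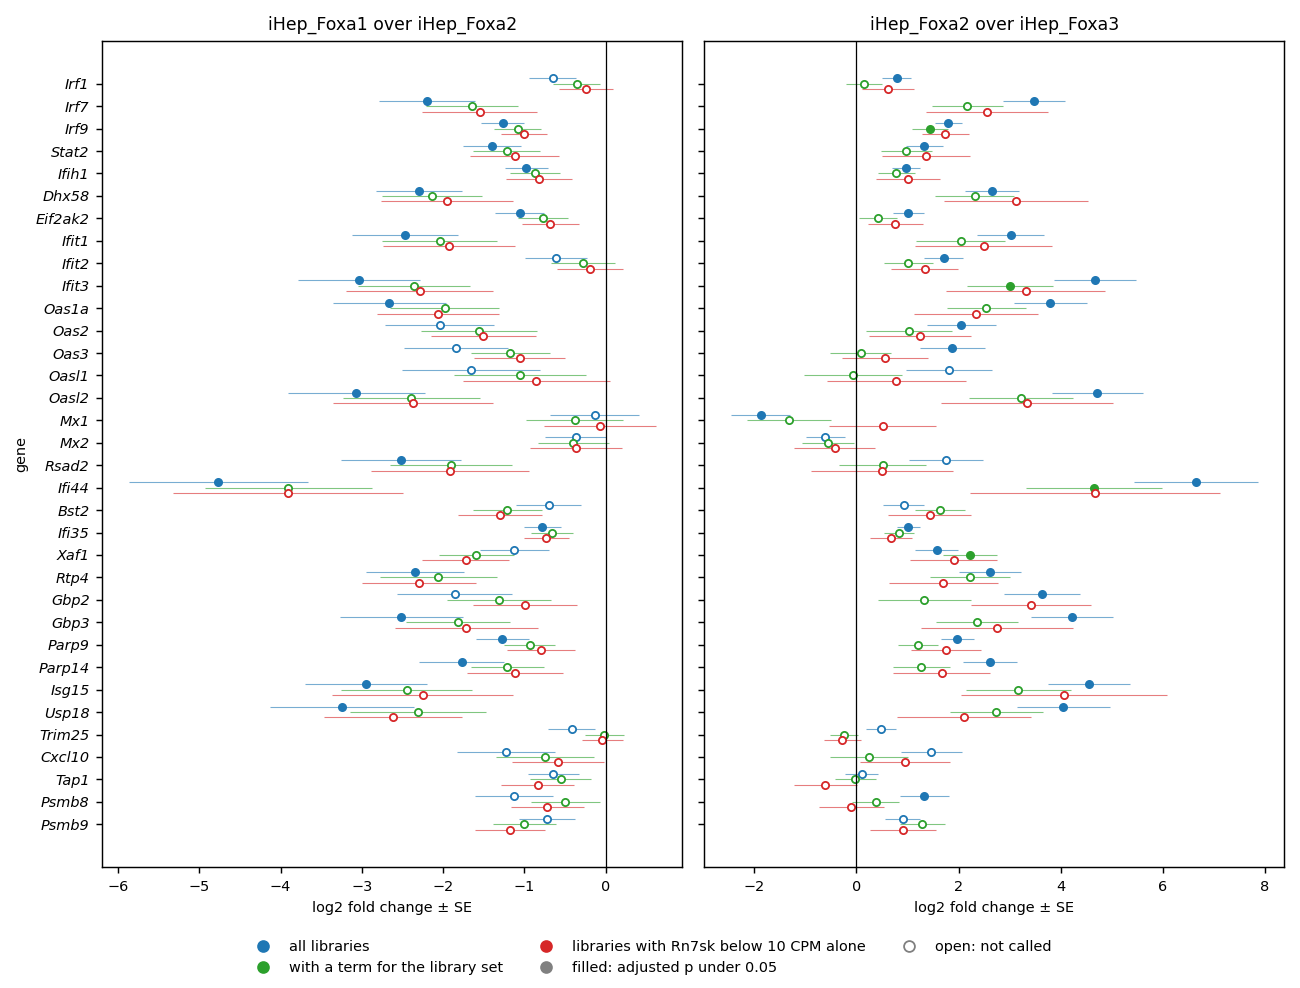
Log2 fold change ± SE of each member in iHep_Foxa1 over iHep_Foxa2 (left) and iHep_Foxa2 over iHep_Foxa3 (right), for all libraries (blue), for the fit that holds the Rn7sk set as a term (green) and for the low Rn7sk set alone (red); filled points have adjusted p under 0.05. Most points keep their side of 0 in all 3 fits, and few of the green points and none of the red ones are filled.

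The comparison of established iHep with the starting MEF rests on MEF libraries that differ from each other. Replicate 2 of MEF exceeded replicate 1 for all 34 members, against 46% of the genes tested, and by 2-fold or more for 26 members, against 9.22%. Isg15 read 8.52 and 79.1 CPM and Oasl2 4.17 and 40.1 CPM in MEF replicates 1 and 2. The macrophage markers summed to 29 and 336 CPM in the same libraries, with 1 of the 11 at 0 in both, and their part in the member levels was not tested. In these bulk libraries, fewer cells of a type and less RNA per cell cannot be told apart.

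iHep_Foxa1 had 6 members higher and 2 lower than MEF in edgeR, against 20% and 19.9% of all genes. iHep_Foxa2 had 12 higher and 0 lower, against 15.3% and 15.5%, and iHep_Foxa3 5 higher and 11 lower, against 22.9% and 23.7%. Irf1, Oas2, Oas3, Mx1 and Mx2 were higher than in MEF with every factor. For Oas2, MEF read 0.192 and 1.24 CPM, and the log2 fold changes were 5.41 ± 1.26 in iHep_Foxa1, 7.45 ± 1.40 in iHep_Foxa2 and 5.40 ± 1.26 in iHep_Foxa3 (adjusted p = 0.00173, 0.000325 and 0.00142), calls kept without each library. For Mx1, MEF read 0.0479 and 1.67 CPM, and the log2 fold change in iHep_Foxa3 was 5.67 ± 1.01 (adjusted p = 0.000107). Without MEF replicate 1, calls were lost for Irf1 with Foxa1, Foxa2 and Foxa3 (0.343, 0.1 and 0.395), for Oas3 with Foxa1 and Foxa3 (0.0828 and 0.0711), for Mx1 with Foxa1 and Foxa2 (0.0518 and 0.0609) and for Mx2 with Foxa1 (0.0583). iHep_Foxa2 also had Irf7, Oas1a, Rsad2, Ifih1, Cxcl10, Ifi35 and Psmb9 higher, and without MEF replicate 1 the number of members called there was 4 in place of 12; for iHep_Foxa1 it was 4 in place of 8. The 11 members lower in iHep_Foxa3 were Ifit1, Ifit2, Ifit3, Irf9, Stat2, Isg15, Oasl2, Ifi44, Gbp2, Gbp3 and Parp9, and none of these calls remained without MEF replicate 2 (adjusted p = 0.0656 to 1) or with a term for the Rn7sk set. Both members lower in iHep_Foxa1, Stat2 and Isg15, were not called without MEF replicate 2 (adjusted p = 0.705 and 0.985).

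Cells 48 h after infection showed no member called against MEF in the edgeR fit over all groups: 0 were higher and 0 lower with Foxa1, Foxa2 and Foxa3 alike, where 2.13% and 3.12%, 2.2% and 3.28%, and 2.22% and 2.98% of all genes were called higher and lower. Before adjustment, the edgeR p was under 0.05 for 0 higher members and for 2, 1 and 1 lower members with Foxa1, Foxa2 and Foxa3, and DESeq2 called 0, 1 and 0. Fitted with the compared groups alone, edgeR called 2 members lower with Foxa1, Ifit3 (adjusted p = 0.0462) and Oas1a (adjusted p = 0.0389). In that fit 18.9% of all genes were called higher and 20.8% lower, so the members' share was below the background. Isg15 read 12.8 and 9.91 CPM in 48h_Foxa1, 11.2 and 13.5 CPM in 48h_Foxa2 and 12.8 and 14.3 CPM in 48h_Foxa3, against 8.52 and 79.1 CPM in MEF. Ifit3 read 20.3 and 21.1 CPM in 48h_Foxa1, 21.8 and 21.9 CPM in 48h_Foxa2 and 21.5 and 20.6 CPM in 48h_Foxa3, against 39.5 and 137 CPM in MEF. The 48 h libraries lay within a narrow band for both genes, and MEF replicate 2 was the highest of the 8. The median log2 fold change of the members was -0.87, -0.58 and -0.65 with Foxa1, Foxa2 and Foxa3, against 0.04, 0.06 and 0.06 over all genes. With a term for the Rn7sk set the members' medians were 0.22, 0.36 and 0.28. That term came from iHep libraries, so it cannot separate set from group in the 48 h and MEF libraries. One 48 h library stood above the other 5 full-length ones for 10 members, against 17.3% of genes, namely 48h_Foxa2 replicate 1. It had 44.2 CPM of Gbp2, against 11.7 CPM in replicate 2, 56.3 CPM of Irf1, against 31.3 CPM, and 5.29 CPM of Cxcl10, against 0.234 CPM.

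Adult hepatocytes carried the highest levels of the immunoproteasome. Psmb8 and Psmb9, the inducible catalytic subunits that shape peptides for MHC class I, read 174 and 188 CPM and 32.4 and 41 CPM in Hep, against 11.2 and 40.6 CPM and 1.48 and 2.09 CPM in MEF. Both Hep libraries exceeded every other library for both genes. Hep had 12 members higher and 1 lower than MEF in edgeR, against 24.3% and 32.6% of all genes; among them were Psmb9 (log2 fold change 4.36 ± 0.62, adjusted p = 3.93e-06), Psmb8 (log2 fold change 2.80 ± 0.80, adjusted p = 0.00506), Ifih1 (log2 fold change 2.35 ± 0.45, adjusted p = 0.000115) and Oasl1 (log2 fold change 5.10 ± 1.57, adjusted p = 0.00853). The lower member was Ifit2, at 4.9 and 5.98 CPM in Hep, against 50.8 and 77.5 CPM in MEF (log2 fold change -3.56 ± 0.68, adjusted p = 0.000134). Ifit2, Ifih1 and Psmb9 kept their calls without each library; without MEF replicate 1 there were 3 members called in place of 13, and without Hep replicate 2 there were 5. Replicate 2 of Hep exceeded replicate 1 for 33 members, against 40.8% of genes. Macrophage markers summed to 445 and 352 CPM in Hep replicates 1 and 2, and their part in these levels was not tested.

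Established iHep did not reach the hepatocyte level of the immunoproteasome with any factor. iHep_Foxa1 had 4 members higher and 14 lower than Hep in edgeR, against 35.3% and 24.8% of all genes, iHep_Foxa2 7 higher and 4 lower, against 35.2% and 25.4%, and iHep_Foxa3 5 higher and 18 lower, against 35.3% and 26.7%. Psmb8 read 15.1, 22.4, 22.4, 6.13, 12.6 and 10.7 CPM in iHep_Foxa1 (log2 fold change -3.60 ± 0.56, adjusted p = 8.55e-06). It read 22.6, 34.1, 18.9 and 55 CPM in iHep_Foxa2 (log2 fold change -2.47 ± 0.63, adjusted p = 0.00175) and 35.5, 4.89, 9.13, 6.72, 5.42 and 16.4 CPM in iHep_Foxa3 (log2 fold change -3.80 ± 0.56, adjusted p = 4.02e-06). Even iHep_Foxa2 replicate 4 stayed below both Hep libraries. Psmb9 fell by a similar amount (log2 fold change -3.45 ± 0.40, -2.73 ± 0.45 and -3.63 ± 0.40 for Foxa1, Foxa2 and Foxa3), while Tap1, the peptide transporter of the same pathway, was called in none of the 3 comparisons and read 23.6 and 42.7 CPM in Hep. Bst2 and Oasl1 were also called lower with every factor. With Foxa2, the Oasl1 call was lost without iHep_Foxa2 replicate 1, 2 or 3 or either Hep library (0.075 to 0.145), and the Bst2 call without iHep_Foxa2 replicate 1 or 3 or Hep replicate 2 (0.0564 to 0.42). Bst2 with Foxa1 was lost without Hep replicate 2 (0.0641). Ifit2, Oas2, Oas3 and Mx1 were higher with every factor: Ifit2 read 17.9 to 87.4 CPM in iHep_Foxa1, 33 to 134 CPM in iHep_Foxa2 and 11.2 to 38.3 CPM in iHep_Foxa3, against 4.9 and 5.98 CPM in Hep (log2 fold change 3.15 ± 0.62, 3.76 ± 0.66 and 2.05 ± 0.58). Without Hep replicate 1, the iHep_Foxa3 call of Ifit2 (0.0556) and the Oas2 calls of iHep_Foxa1 and iHep_Foxa3 (0.057 and 0.0553) were lost, and the Oas3 calls of iHep_Foxa1 and iHep_Foxa3 were lost without either Hep library (0.118 to 0.161). For iHep_Foxa2 the number of members called was 7 without Hep replicate 1 and 6 without Hep replicate 2, in place of 11.

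**Figure D5:**
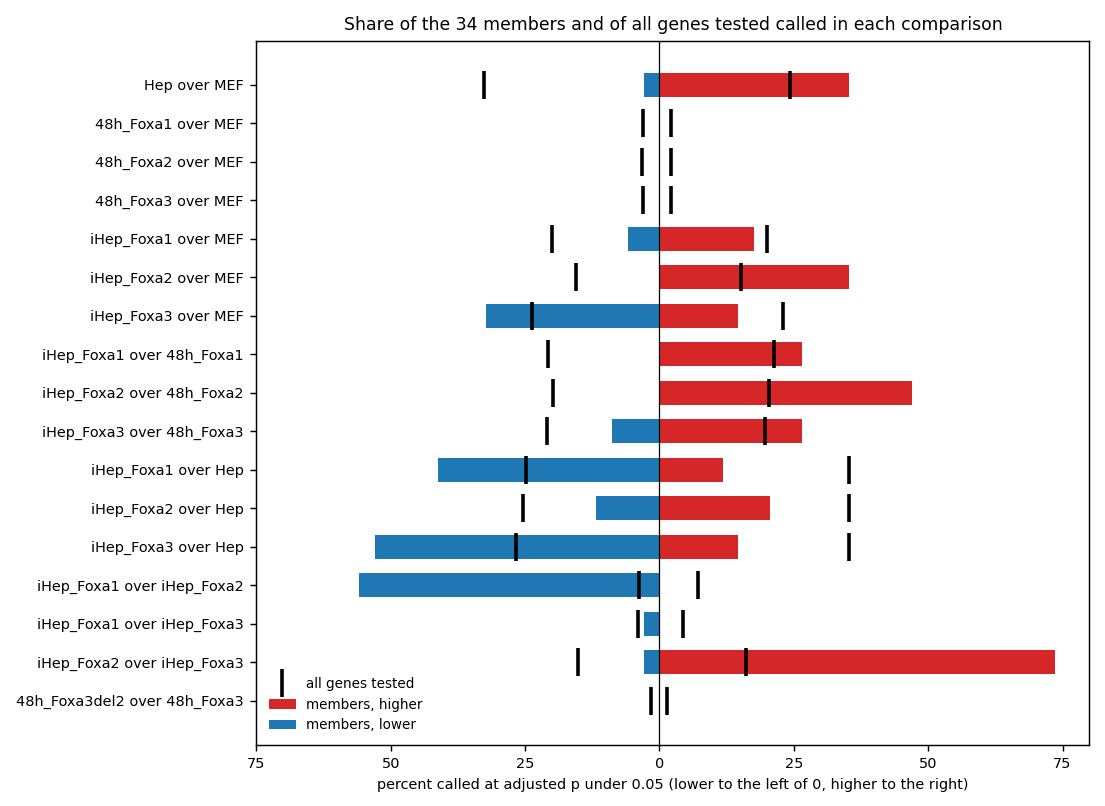
Percent of the 34 members called higher (right of 0) and lower (left of 0) at adjusted p under 0.05 in each comparison, as bars, with the percent of all 16499 genes tested as black ticks. The bars pass the ticks by the widest margin in iHep_Foxa2 over iHep_Foxa3 on the right and iHep_Foxa1 over iHep_Foxa2 on the left, and the edgeR fit over all groups called no member 48 h after infection against MEF.

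The Foxa3 deletion mutant was compared with full-length Foxa3 at 48 h. In the edgeR fit over all groups 0 members were higher and 0 lower in 48h_Foxa3del2, against 1.4% and 1.58% of all genes, and DESeq2 called 2 lower; before adjustment, the edgeR p was under 0.05 for 1 higher and 3 lower members. Fitted with these 4 libraries alone, whose spread is small, 6 were higher and 21 lower, against 32% and 33.3% of the 15087 genes tested. With a term for the Rn7sk set, 0 were higher and 5 lower (Usp18, Oas1a, Gbp2, Gbp3 and Psmb8), against 10.7% and 12.4% of all genes. The share of lower members was thus above the background in these 4 libraries alone and near it with the set term. That term was estimated inside iHep_Foxa1 and iHep_Foxa3, so it cannot separate set from construct here. Both 48h_Foxa3del2 libraries lay below both 48h_Foxa3 libraries for 23 members, against 39.9% of genes, and above them for 6, against 38.5%. Psmb8 read 2.28 and 2.96 CPM in 48h_Foxa3del2, against 12.6 and 12 CPM in 48h_Foxa3 (log2 fold change -2.23 ± 0.14, adjusted p = 7.05e-14 in these libraries alone). Bst2 read 9.67 and 11.2 CPM in 48h_Foxa3del2, against 38.2 and 38.1 CPM in 48h_Foxa3 (log2 fold change -1.86 ± 0.10, adjusted p = 4.26e-16 in these libraries alone). Ifih1 was among the higher ones, at 25.3 and 23.3 CPM in 48h_Foxa3del2, against 12.3 and 12.3 CPM in 48h_Foxa3. The 48h_Foxa3del2 libraries differed from the other 48 h libraries in more than the construct: Xist read 0.146 to 0.16 CPM in them, against 585 to 1980 CPM in all other libraries, Hnf4a 727 to 737 CPM, against 75.5 to 87.1 CPM in 48h_Foxa3, and the fibroblast markers summed to 7230 to 8710 CPM, against 24400 to 25500 CPM.

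Genes of the same pathway that are not members were read from 5 lists. Of the 14 interferon and receptor genes, 6 passed the filter on low counts, all of them receptor genes, and in each group 6 to 8 of the 14 had no count in any library. Among the receptors, Ifnlr1, the specific chain of the type III interferon receptor, read 18.9 to 43.4 CPM in iHep_Foxa1, 15 to 41 CPM in iHep_Foxa2 and 17.7 to 30.9 CPM in iHep_Foxa3, against 0.587 to 0.764 CPM in 48h_Foxa1, 1.1 to 1.17 CPM in 48h_Foxa2 and 0.836 to 1.07 CPM in 48h_Foxa3 (log2 fold change 5.41, 4.80 and 4.63, adjusted p = 2.13e-07, 1.18e-06 and 6.41e-07). It had no count in either Hep library, where 3 counts are 0.206 CPM or less before TMM scaling and more after it. Ifngr1, a chain of the interferon gamma receptor, rose as well (120.0 to 385 CPM in iHep_Foxa1, against 43 to 45.5 CPM in 48h_Foxa1), and Ifnar1, a chain of the type I receptor, fell with each factor (log2 fold change -0.95, -1.11 and -0.80).

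Among 15 sensors and adaptors tested, 2, 3 and 2 were higher and 0, 3 and 1 lower in iHep_Foxa1, iHep_Foxa2 and iHep_Foxa3 than at 48 h, where 21.2%, 20.4% and 19.6% of all genes were higher and 20.7%, 19.7% and 21% lower; Ikbke, a kinase that activates interferon regulatory factors, was higher with each factor (log2 fold change 2.20, 1.88 and 2.42). Of 15 transducers and transcription factors, 7, 5 and 9 were higher and 5, 2 and 4 lower, with Jak1 and Stat3 lower in each. Of 36 other interferon-stimulated effectors, 4, 9 and 6 were higher and 1, 1 and 5 lower than at 48 h, against the same shares of all genes. Of the same 36, 22 were higher and 1 lower in iHep_Foxa2 than in iHep_Foxa3, against 16% and 15.1% of all genes. Of 12 MHC class I presentation genes, 10 were higher and 0 lower in Hep than in MEF, against 24.3% and 32.6% of all genes. In iHep_Foxa1, iHep_Foxa2 and iHep_Foxa3, 12, 11 and 12 of them were lower than in Hep, against 24.8%, 25.4% and 26.7% of all genes. H2-K1, a class I heavy chain, read 121 to 245 CPM in iHep_Foxa1, 93.1 to 537 CPM in iHep_Foxa2 and 109 to 209.8 CPM in iHep_Foxa3, against 2618 to 3719 CPM in Hep. Against MEF at 48 h, 1 gene of the 5 lists was called with each factor, and it was lower. It was Irf3, which switches on interferon genes (log2 fold change -0.86, -0.87 and -0.84). Of all genes, 3.12%, 3.28% and 2.98% were called lower there, and 2.13%, 2.2% and 2.22% higher.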

How the data were processed

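RNA was sequenced from 28 libraries in 9 groups of mouse cells; per the labels' protocols, RNA came from RNeasy Micro columns and libraries from the TruSeq Stranded mRNA kit. The submitters' processing notes name BWA 0.7.12 and mm9. The program that estimated transcript abundances is not given in the sources used here. Each deposited table lists 30710 transcripts with an expected count per transcript, nearly all whole. The FPKM column deposited beside it, per the file headers, was used for levels between genes and for 1 alternative fit. The deposited fraction of each transcript in the library (THETA) and the transcript length were not tested.

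Expected counts were summed per gene through RefSeq accessions, rounded to whole numbers and modelled in edgeR 4.0.16 (R 4.3.3). Of the transcripts, 30186 matched RefSeq, 185 matched GENCODE and 339 had no match, the last holding 0.609% to 3.21% of the reads of a library. The quasi-likelihood F test used TMM scaling, the filterByExpr filter and 1 coefficient per group over all libraries, with Benjamini-Hochberg adjustment over the 16499 genes of each comparison and a threshold of 0.05. Alternatives were DESeq2 1.42.0 size factors and Wald test, limma 3.58.1 on log2(FPKM + 1), no filter, the compared groups alone, a replicate block, a term for the library set, each set alone and each library left out. The SE of a log2 fold change comes from the quasi-likelihood fit and includes the spread between libraries, which may be technical. Floors of 3 counts cover counting error only.

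The members, the lists, the library sets and the split of iHep_Foxa1 were chosen with earlier results of these data known. Members were described library by library where they were regulators, among the 3 highest of their role by mean CPM or spread over 10-fold or more among iHep libraries, and up to 4 genes per list called in the most comparisons and up to 3 with the highest mean CPM could be named.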

Additional observations from a re-analysis of the deposited data

Results flagged for a closer look

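In groups of 4 or 6 libraries, 4 of 102 tests of the members found a library apart from the rest of its group, where chance flags about 1 in 20. Stat2 was low in iHep_Foxa3 replicate 6 at 24.6 CPM, Usp18 (the protease that removes Isg15) was high in iHep_Foxa3 replicate 1 at 7.84 CPM, Xaf1 was high in iHep_Foxa1 replicate 6 at 9.25 CPM, and Tap1 was low in iHep_Foxa1 replicate 2 at 9.57 CPM.

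For 5 members every iHep_Foxa2 library lay above and every iHep_Foxa3 library below the 48 h libraries of its factor, and this difference between factors was not tested. The share of all genes with this pattern was not counted, so the 5 members cannot be set against a background. All iHep_Foxa2 libraries are in the low Rn7sk set and most iHep_Foxa3 libraries in the high set, and the part of the set in this pattern was not tested. The log2 ratio of the iHep mean to the 48 h mean was 2.22 with Foxa2 and -0.864 with Foxa3 for Ifit1, and 2.91 and -1.7 for Ifit3. It was 1.15 with Foxa2 and -0.697 with Foxa3 for Irf9, 3.1 and -1.53 for Oasl2, and 1.49 and -0.428 for Parp9.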

How the results depend on the processing

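Of the 196 member and comparison pairs called, leaving out 1 library of the groups compared kept the direction and the call in 1232 refits, lost the call in 275 and reversed the direction in 1, and the other alternatives kept it in 1209, lost it in 293 and reversed it in 3. The reversals were Ifit1 in iHep_Foxa3 over MEF (log2 fold change 0.0277 without MEF replicate 2 and -2.74 without MEF replicate 1) and, within the low Rn7sk set, where iHep_Foxa3 is 1 library (replicate 1) assumed to vary like the others, Mx1 in iHep_Foxa1 over iHep_Foxa3 (0.45) and in iHep_Foxa2 over iHep_Foxa3 (0.51) and Psmb8 in iHep_Foxa2 over iHep_Foxa3 (-0.10). Leaving out single libraries moved the number of members called over 3 to 16 for Hep over MEF, 4 to 9, 4 to 15 and 6 to 17 for iHep_Foxa1, iHep_Foxa2 and iHep_Foxa3 over MEF, 6 to 11, 9 to 19 and 4 to 14 for the same over 48 h cells and 12 to 20, 6 to 12 and 18 to 24 over Hep. It moved over 1 to 21 for iHep_Foxa1 over iHep_Foxa2, 1 to 4 for iHep_Foxa1 over iHep_Foxa3 (2 without iHep_Foxa1 replicate 4 or iHep_Foxa3 replicate 5, 3 without iHep_Foxa1 replicate 5, 4 without iHep_Foxa3 replicate 1), 18 to 28 for iHep_Foxa2 over iHep_Foxa3 and 3 to 16 for iHep_Foxa1 replicates 4 to 6 over 1 to 3, and it stayed at 0 for 48 h cells over MEF and for 48h_Foxa3del2. With limma on FPKM the number was 6 for Hep over MEF, 10 for iHep_Foxa3 over MEF and 19 for iHep_Foxa2 over Hep. With the compared groups alone it was 2 for 48h_Foxa1 over MEF, 3 and 7 for iHep_Foxa1 and iHep_Foxa2 over MEF, 0 for iHep_Foxa1 over iHep_Foxa2 and over iHep_Foxa3, and 27 for 48h_Foxa3del2. Of all genes, 0.0142% were then higher and 0.00712% lower for iHep_Foxa1 over iHep_Foxa2, and 0.219% and 0.386% for iHep_Foxa1 over iHep_Foxa3. For iHep_Foxa1 and iHep_Foxa2 over MEF the shares were 10.8% and 12.9%, and 14.1% and 16.6%. DESeq2 called 1 for 48h_Foxa2 over MEF, 4 for iHep_Foxa1 over iHep_Foxa3 (2 with its size factors in edgeR) and 2 for 48h_Foxa3del2. A term for the library set gave 8 for iHep_Foxa3 over MEF, 9 for iHep_Foxa2 over 48h_Foxa2, 15 for iHep_Foxa3 over Hep, 0 for iHep_Foxa1 over iHep_Foxa2 and over iHep_Foxa3, 4 for iHep_Foxa2 over iHep_Foxa3 and 5 for 48h_Foxa3del2. The high set alone gave 16 and 20 for iHep_Foxa1 and iHep_Foxa3 over 48 h cells and 2 for iHep_Foxa1 over iHep_Foxa3; the low set alone gave 4 for iHep_Foxa3 over MEF, 10 for iHep_Foxa3 over Hep and 0 between the iHep groups, where those with iHep_Foxa3 rest on that lone library. Without the filter on low counts, iHep_Foxa1 replicates 4 to 6 over 1 to 3 gave 6. The replicate numbers do not pair the samples: with 6 pairs, 1 library of iHep_Foxa1 and iHep_Foxa3 correlated best with its own number, and over all comparisons r was -0.177 to 0.209. With the replicate block the number called was 5 for iHep_Foxa1 over MEF, 9 for iHep_Foxa3 over MEF and 1 for iHep_Foxa1 over iHep_Foxa2. The cause of these changes was not tested.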
